A study of Caenorhabditis elegans with 2 samples.

Results

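The 300 strongest intronic peaks of PAX-1::eGFP on the autosomes of late Caenorhabditis elegans embryos lay in longer introns than weaker intronic peaks, more often in the one nearest the 5′ end, and in sequence richer in G+C. They were selected on the signal value that the authors gave each peak of the list called on both replicates pooled. Of the 300, 49 were in the thresholded list of the authors, and most therefore fell short of that threshold. The pooled list holds both peaks and background. Of its 30000 peaks, 24672 were autosomal. Among these, 5410 had a summit more than 1000 bp from every protein-coding start, inside a protein-coding gene and in no exon of any gene, and the 300 with the highest signal (5.55% of the 5410) are the members. The other 5110 are called lower eligible peaks. Because signal chose the members, their signal and their ranks are descriptions with no test, and the sequence and gene features were not tested either.

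Chromatin immunoprecipitation followed by sequencing (ChIP-seq), which recovers DNA that a protein occupies, was done in 2 biological replicates of 1 group. The worms were strain OP117, genotype unc-119(ed3) III; wgIs117, in which wgIs117 is an insertion that carries eGFP-tagged pax-1. Whole embryos of both sexes were pooled at the late embryonic stage. Both replicates share the unc-119 mutation and the transgene, no untagged strain was analysed here, and the labels do not say how the cultures of the replicates were kept apart. The control alignment that the authors used was not analysed here.

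PAX-1 belongs to the Pax family, transcription factors that bind DNA through a paired domain and act in the patterning of animal embryos. Regulatory elements of C. elegans genes lie mostly just upstream of the start, but long introns, above all the one nearest the 5′ end, can hold enhancers and internal promoters. A peak list from whole embryos sums over all cells, so binding in few cells and weak binding in many cannot be told apart.

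The sequence under the strongest members shows what the later shares count. Each line gives the reference around 1 summit, 75 bp on each side, on the plus strand of ce11 (WBcel235, the RefSeq genome), 5′ to 3′, for 5 of the 6 highest members. Capitals mark the hexamer GAGAGA, the hexamer AGAGAC and the heptamer CTGCGTC, on either strand. These words can overlap, since AGAGAC may follow directly on a GA repeat.
chtb-1 (chrIII:9353941-9354091): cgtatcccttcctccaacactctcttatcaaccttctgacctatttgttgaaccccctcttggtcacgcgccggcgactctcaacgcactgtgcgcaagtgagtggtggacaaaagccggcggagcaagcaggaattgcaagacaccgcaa
ptr-19 (chrIII:10783177-10783327): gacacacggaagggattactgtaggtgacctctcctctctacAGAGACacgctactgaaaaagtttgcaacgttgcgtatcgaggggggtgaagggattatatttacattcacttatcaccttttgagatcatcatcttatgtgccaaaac
mnk-1 (chrII:10552111-10552261): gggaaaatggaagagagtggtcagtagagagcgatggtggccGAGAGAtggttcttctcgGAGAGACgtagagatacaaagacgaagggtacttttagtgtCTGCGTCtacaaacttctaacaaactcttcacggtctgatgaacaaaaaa
Y111B2A.12 (chrIII:12612603-12612753): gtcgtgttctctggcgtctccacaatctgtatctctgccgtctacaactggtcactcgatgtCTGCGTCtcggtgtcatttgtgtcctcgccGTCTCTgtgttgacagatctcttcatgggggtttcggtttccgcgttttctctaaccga
dab-1 (chrII:8223506-8223656): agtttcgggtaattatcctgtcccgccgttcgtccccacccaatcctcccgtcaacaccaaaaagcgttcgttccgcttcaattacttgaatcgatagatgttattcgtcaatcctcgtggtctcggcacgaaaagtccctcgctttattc
The windows of chtb-1 and dab-1 hold none of these words, whereas mnk-1 holds all of them.

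A second set shows the other kinds of member. The windows in larp-1 and epg-9 are the 2 with the highest signal, beyond the set above, that hold the recurring word described further on. The window in Y53G8AM.8 has a GA run of 42 bases, which only that of afd-1, with 55 bases, exceeds among the members, and the window in szy-2 has the lowest G+C, 16.6%. Build, strand and capitals are as before. These members were chosen after their values were seen.
larp-1 (chrIII:5014048-5014198): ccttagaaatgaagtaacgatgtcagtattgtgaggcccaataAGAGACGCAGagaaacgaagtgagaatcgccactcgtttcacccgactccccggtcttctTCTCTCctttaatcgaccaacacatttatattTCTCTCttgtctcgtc
epg-9 (chrIV:2602104-2602254): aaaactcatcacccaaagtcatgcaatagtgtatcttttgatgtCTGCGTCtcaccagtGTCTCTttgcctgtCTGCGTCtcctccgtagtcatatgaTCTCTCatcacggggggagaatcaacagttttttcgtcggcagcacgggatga
Y53G8AM.8 (chrIII:3271883-3272033): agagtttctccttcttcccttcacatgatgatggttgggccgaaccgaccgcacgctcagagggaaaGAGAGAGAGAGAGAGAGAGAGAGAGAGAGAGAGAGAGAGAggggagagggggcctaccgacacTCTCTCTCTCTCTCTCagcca
szy-2 (chrIII:5369582-5369732): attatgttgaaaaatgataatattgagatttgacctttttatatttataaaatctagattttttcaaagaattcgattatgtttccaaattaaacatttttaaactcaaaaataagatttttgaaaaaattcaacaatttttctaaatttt
Repeated, purine-rich and A+T-rich sequence thus occur side by side among the members.

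Pooled signal of the members ran from 225.4 to 32.9, with a median of 39.0 in the authors' units. The 100 highest lay between 225.4 and 44.8, the next 100 between 44.7 and 36.4, and the lowest 100 between 36.4 and 32.9. The signal thus fell steeply over few members and then levelled off. All 300 peaks were 344 bp wide, as the authors' pooled call gave them. The -log10 q values of the members were low, between 0.333 and 1.85, with a median of 0.688. The thresholded list of the authors held 49 of the members (16.3%), all among the 100 highest, and none of the 5110 lower eligible peaks. That was 0.906% of all 5410 eligible peaks, against 594 of the 24672 autosomal pooled peaks (2.41%). Because signal chose the members, their larger share in that list is built in. A pooled peak of higher signal overlapped 5 members (1.67%) and 5.05% of the lower eligible peaks, a contrast that the choice by signal also builds in.

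The 2 replicates placed the members differently. Replicate 1 listed 289 of the 300 (96.3%) and replicate 2 listed 274 (91.3%), with 263 in both (87.7%) and none in neither. Of all 5410 eligible peaks, replicate 1 listed 59.0% and replicate 2 listed 62.3%, with 31.7% in both and 10.5% in neither. Among the 714 highest peaks of a replicate, the size of the thresholded list, were 56 members in replicate 1, 45 in replicate 2 and 22 in both. These were 18.7%, 15% and 7.33% of the members, against 1.09%, 1.07% and 0.407% of all 5410 eligible peaks. The choice of members by signal builds in all of these contrasts. The share in both was 2.33% for the 300 highest over 2000 bp from every start. The median rank was 2259 in replicate 1 and 3183.5 in replicate 2. Ranks in the replicates differed by a median of 3.44-fold over the 263 members in both lists, and by over 10-fold for 44 of them. Spearman's rho between the ranks was 0.115 over the 263, which share their selection on pooled signal. Overlapping members can meet the same replicate peak.

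**Figure D1:**
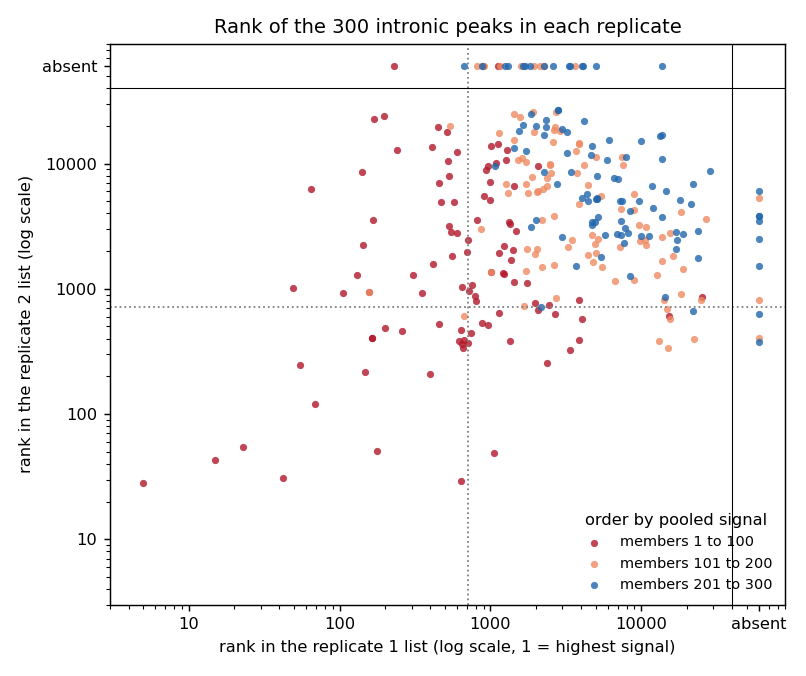
Rank of each of the 300 members in the list of replicate 1 (horizontal, log scale) and of replicate 2 (vertical, log scale), where rank 1 is the highest signal. Colours give the order by pooled signal, dotted lines mark rank 714, and points past the solid lines were absent from that list. The 100 highest members have median ranks of 702 and 1129, and the lowest 100 have 5029 and 5020.

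The strongest member lay in chtb-1, in the intron numbered 3 of 14, 891 bp long. Its signal was 225.4 in the pooled list, 147.3 in replicate 1 and 74.98 in replicate 2, with ranks 5 and 28. ptr-19, of the patched-related family of membrane proteins, followed with 181.3 pooled, 125.1 in replicate 1 and 61.5 in replicate 2, ranks 15 and 43. The peak of mnk-1, which encodes a MAP kinase-interacting kinase, had 172.2 pooled, 102.04 and 74.4 in the replicates, ranks 42 and 31. Y111B2A.12 had 160.8 pooled, 113.6 and 54.5 in the replicates, ranks 23 and 55. All of these were within the 60 highest peaks of both replicates.

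Others of the 15 highest were also strong in both replicates. The cadherin gene cdh-8 had a peak of 135.5 pooled, with ranks 55 and 246, and dab-1, an adaptor gene of the Disabled family, one of 125.0 with ranks 69 and 120. pqn-41, which encodes a protein rich in glutamine and asparagine, had a peak of 120.1 with ranks 176 and 51. The peak of dhc-4, a dynein heavy chain gene, reached 108.2 with ranks 147 and 218. par-1, a polarity kinase gene, had a peak of 97.3 with ranks 165 and 406. gei-4 had a peak of 114.5 with ranks 634 and 29. In these 6 genes both replicates placed the peak among their 714 highest.

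Other strong members rested mostly on 1 replicate. ttx-1, an Otx-type homeobox gene needed in a thermosensory neuron, had a peak of 115.6, with 95.5 in replicate 1 at rank 49 and 24.5 in replicate 2 at rank 1023. kal-1, the anosmin gene, had 97.1 pooled, with ranks 65 and 6286. daf-16, the FOXO gene of the insulin pathway, had 91.9 pooled, with 69.5 at rank 141 and 14.9 at rank 8621. pac-1, which encodes a RhoGAP of embryonic polarity, had 95.5 with ranks 130 and 1290. The opposite order was seen in F42A10.9, with 95.8 and ranks 1049 and 49. For kal-1 and daf-16 the pooled place therefore rests on replicate 1.

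At the lower end, the last members inside the 300 were the peaks of crh-1, a CREB homologue, at 32.96, of inpp-4B at 32.94 and of R05C11.4 at 32.93. The peaks just outside were those of fbxl-5, lgc-10 and spr-5, each at 32.91. These values nearly touch, so the boundary marks no break in signal.

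The members lay in longer introns than the lower eligible peaks, and more often in the intron nearest the 5′ end. A summit fell in an intron of a protein-coding transcript for 297 of the 300, and the other 3 lay within cdc-25.2 but in no such intron. The median host intron was 2849 bp long (exact binomial 95% interval of the median 2343 to 3389 bp), against 1132.5 bp (1096 to 1168) for the lower eligible peaks. Introns over 2000 bp held 175 of 297 members (58.9%, 53.1 to 64.6%) and 32.8% of the lower peaks, and introns over 5000 bp held 28.6% and 17.2%. The intron nearest the 5′ end held 82 members (27.6%, 22.6 to 33.1%) against 12.6% of the lower peaks. The last intron held 23 members (7.74%) against 16.5%. Intervals cover counting over peaks, which are not independent, and the files give no read counts, so depth is unknown.

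**Figure D2:**
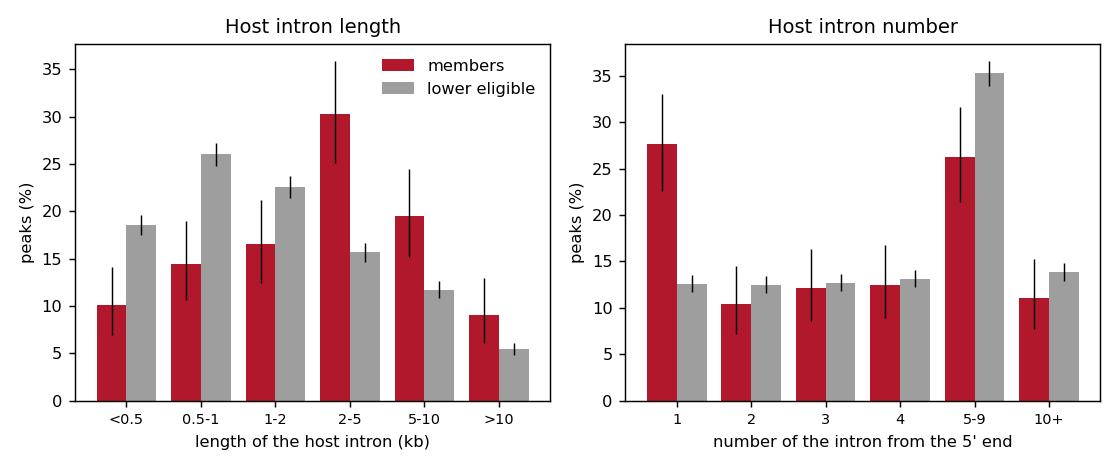
Share of peaks (percent) by length of the host intron in kb (left) and by number of the intron counted from the 5′ end of the transcript (right), for 297 members and 5094 lower eligible peaks; bars are shares and lines exact 95% binomial intervals. Members reach 30.3% in introns of 2 to 5 kb, where lower peaks have 15.7%, and 27.6% in intron 1, where lower peaks have 12.6%.

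The members sat farther from exons in bp than the lower peaks, in introns that were also longer. The median summit was 407.5 bp from the nearest exon edge, against 244 bp for the lower peaks. The median position was 49.1% of the way through the intron, against 51.1%. The part of intron length in the distance was not tested. In 84 members (28%) the 344-bp peak still touched an exon, against 37.3% of the lower peaks, and 17 members (5.72%) lay in an intron no wider than the peak, against 9.97%. The median distance to the nearest protein-coding start was 2083.5 bp against 2317 bp. The median distance from the 5′ end of the transcript was 3893 bp (3444 to 4798) against 4076 bp (3945 to 4191). The position along the gene was 43.6% of its length from the 5′ end against 54.005%. The share in intron 1 depended on the transcript that numbers the introns: with the shortest one that fits it was 37.7%.

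The members had 248 host genes, of 2615 genes with an eligible intronic peak (9.48%). Which genes were hosts depended on the replicate: the same rule on each replicate's list alone gave 240 hosts for replicate 1 and 268 for replicate 2, of which 90 were shared (37.5% and 33.6%). The 300 peaks so chosen in each replicate shared 67 (22.3%). These 248 genes had a median length of 10.6 kb, against 5.73 kb for genes with an eligible peak and no member. In 213 genes there was 1 member, in 22 there were 2, in 10 there were 3, in 2 there were 4 and in 1 there were 5. The 35 genes with several members held 87 of the 300, and 9 members overlapped another. By chromosome, III held 79 of its 1226 eligible peaks (6.44%) and the other autosomes between 4.77% and 5.50%.

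hmr-1, a cadherin gene, had the most members. Its 5 peaks, in 3 introns of a gene of 58.9 kb, had pooled signals of 51.5, 44.9, 34.2, 33.5 and 33.2. The peaks of 51.5, 44.9 and 33.2 lay upstream of the transcript start at 40.1 kb. They are thus within transcripts that start at the 5′ end of the gene, and not within shorter ones. The peaks of 34.2 and 33.5 lay downstream of that start. Replicates differed here: the peak of 51.5 had rank 3375 in replicate 1 and 325 in replicate 2, and the peak of 33.5 was absent from replicate 2. pqn-41 had 4 members at 120.1, 68.5, 38.7 and 37.1, all within 1 intron of 7776 bp. Their G+C was 48.3 to 57.0%. The members were numbered to intron 14 of 21, but an annotated transcript starts at the exon just before the 7776 bp. That number and that length may therefore belong to different transcripts. lsy-22, named from a screen for left-right asymmetry of neurons, had 4 members in intron 1, 11392 bp long, at 53.2, 51.6, 47.1 and 44.1. All but the peak of 51.6 lay within 1000 bp of each other, and some share 1 peak of a replicate.

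**Figure D3:**
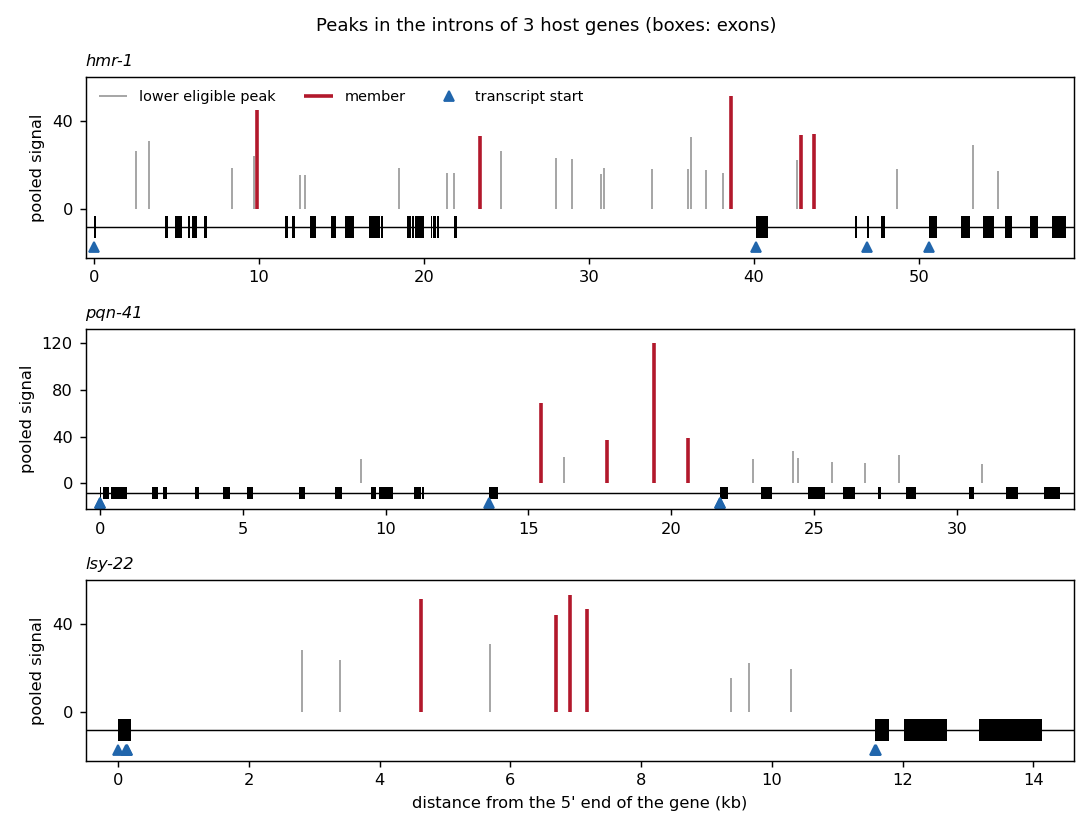
Pooled signal of the eligible intronic peaks (vertical lines; members in red, lower eligible peaks in grey) against distance from the 5′ end of the gene in kb, for hmr-1, pqn-41 and lsy-22. Black boxes are exons and blue triangles protein-coding transcript starts; the 4 members of pqn-41, at 120.1, 68.5, 38.7 and 37.1, share 1 intron.

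cdh-8 had 3 members in 1 intron, at 135.5, 39.99 and 36.8, and the weaker ones had ranks 19838 and 23453 in replicate 2, against 543 and 1582 in replicate 1. par-1 had 3 members in 1 intron, at 97.3, 47.9 and 34.7, of which the first 2 overlap the same replicate peak. kal-1 had 3, at 97.1, 37.8 and 36.4, and the lower ones ranked higher in replicate 2, at 815 and 1426, than in replicate 1, at 14239 and 18746. These examples show a strong peak beside weaker ones whose ranks differ between replicates.

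The sequence under the members was richer in G and C than that of other intronic peaks. Median G+C of the windows was 38.4% (36.4 to 41.1%) against 29.1% for the lower peaks. It was 39.1% for 1692 autosomal peaks within 1000 bp of a start that had at least the signal of the lowest member. Repeat-masked sequence filled over 50% of the window in 78 members (26%) and in 62.9% of the lower peaks. No base was masked in 61 members (20.3%) and in 2.68% of the lower peaks. All 36-base words of the window were unique in the genome for 290 members (96.7%) and 92.3% of the lower peaks. With the list of replicate 2 alone, the masked share of the 300 highest was 39.7%, and median G+C was 32.5%. Among the 300 highest with a summit over 2000 bp from every start, the masked share was 45.7%.

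The members were not alike in this. The 100 highest had a median G+C of 45.03%, the next 100 had 33.8% and the lowest 100 had 33.1%. Windows with G+C under 25% numbered 2, 16 and 20 in these groups, and windows over 50% masked 8, 33 and 37. The strongest peaks of the introns therefore differ in composition from the weakest, whereas intron length (medians 3107, 2855 and 2766 bp) and the counts in intron 1 (28, 28 and 26) changed little along the order.

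A GA repeat hexamer was in a larger share of the members than of the lower peaks. GAGAGA, on either strand, was in 83 windows (27.7%, 22.7 to 33.1%), against 6.30% of the lower peaks and 22.7% of the peaks near starts. Its share in the 100 highest, the next 100 and the lowest 100 was 46, 21 and 16 windows. This hexamer was looked at after its values were seen. AGAGAC, picked from earlier results of these data, was in 69 windows (23%) against 4.01% and 17.7%. CACACA was in 50 windows (16.7%) against 5.52% and 13.9%. On the list of replicate 2 alone the 300 highest had GAGAGA in 16.7%, AGAGAC in 12% and CACACA in 8%. The lower eligible peaks of that list had them in 5.46%, 3.85% and 4.93%. On the list of replicate 1 alone the 300 highest had 34.3%, 27% and 21.3%, and its lower peaks 7.76%, 4.17% and 6.22%. Among the 300 highest over 2000 bp from every start, AGAGAC was in 13.3% and GAGAGA in 16%. Among the 600 highest they were in 14.8% and 17.8%.

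Composition differs between the sets, so the shares were also taken among windows of 35 to 55% G+C. These were 173 members, 1180 lower peaks and 1072 peaks near starts, with median G+C of 43.7%, 38.4% and 42.4%. GAGAGA was then in 42.2%, 12.1% and 29.5%. AGAGAC was in 36.4%, 10.1% and 23.04%, and CACACA in 27.2%, 11.4% and 17.2%. Runs of GA of 10 or more bases were in 15 members (5%) and in 0.568% of the lower peaks. Read along the host gene, GAGAGA was on the sense strand in 30 members, on the antisense strand in 44 and on both in 8. The lower peaks had a like balance, with 124, 182 and 16.

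**Figure D4:**
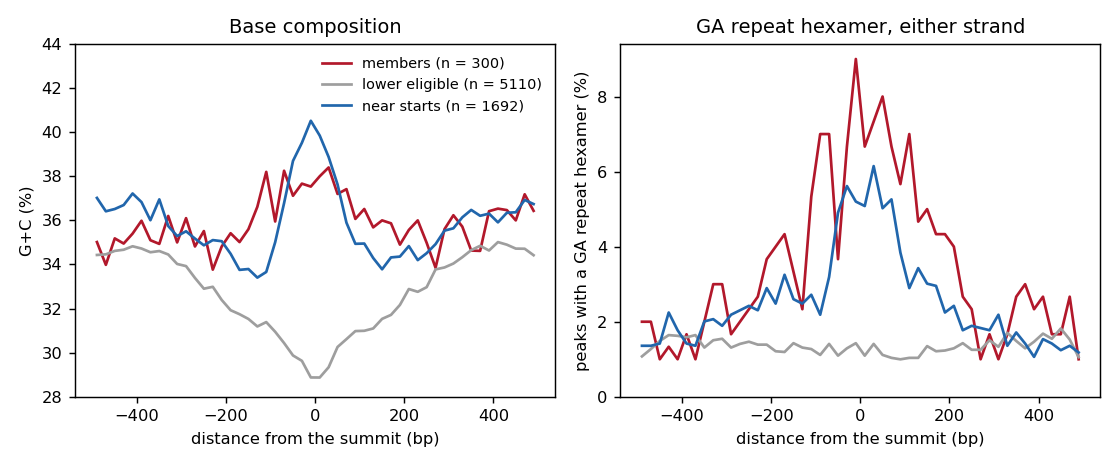
G+C in percent (left) and percent of peaks with a GA repeat hexamer on either strand (right), in bins of 20 bp, against distance from the summit in bp, for members, lower eligible peaks and peaks near starts. The hexamer reaches 9% of members just beside the summit and 2% near 500 bp away, while lower peaks show 1.43% beside the summit and a dip in G+C to 28.9%.

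A longer word recurred as well. GAGACGCAGA, or its reverse complement TCTGCGTCTC, was the 10-base word whose share differed most between members and lower peaks, found by that search in these windows. It was in 21 members (7%), 30 of 5110 lower peaks (0.587%) and 120 of 1692 peaks near starts (7.09%). It occurs 3338 times in the genome. Of the 21 members, 13 were among the 100 highest and none among the lowest 100, 10 were in the thresholded list and 16 also held GAGAGA. Hosts include Y111B2A.12 (160.8), larp-1 (90.4), epg-9 (88.4) and ras-1 (87.6), and pes-4 held it at 2 members. With replicate 1 alone the word was in 12% of the 300 highest, and with replicate 2 alone in 3.33%. The lower eligible peaks of these lists had the word in 0.654% and 0.704%. CTGCGTC, which lies within the word, was in 27 members (9%) against 1.21% and 9.75%.

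Other words were counted on either strand in the order members, lower peaks and peaks near starts. CGTCTC, like the hexamer ACGCAG, which overlap the longer word, were in 14.7%, 2.58% and 15.9% and in 11.3%, 2.41% and 14.6%. TCACGC, a core of paired-domain sites, was in 13 members (4.33%), 1.60% and 4.67%. Within the G+C band it was in 6.94%, 2.80% and 5.78%. The forkhead word TGTTTGC was in 7.33%, 2.49% and 9.46%. TAATTA, a homeobox core, was in 5.33%, 8.88% and 7.09%, and TGATAA, bound by GATA factors, in 11.3%, 12.4% and 9.34%. TTTTTTTT was in 18.3%, 38.8% and 16.1%. A match is only a description of these letters.

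Some members lay beside small RNA genes. A tRNA, snRNA, snoRNA or microRNA gene touched 14 peaks, in 13 of them within 100 bp of the summit. Members and lower peaks compared as 1.33% and 0.196% for tRNA, 1% and 0.0587% for snRNA, 2% and 0.294% for snoRNA, and 0.333% and 0.0587% for microRNA genes. The peak in dhc-4 (108.2) lay 12 bp from the snRNA gene R07E5.16, and 70.7% of the 36-base words of its window were unique in the genome. The peak in pxn-1 (62.95) lay 13 bp from the snoRNA gene ZK994.7. One member, in Y62F5A.9 (66.5; ranks 878 and 533), lay beside mir-35, a member of a microRNA cluster needed in embryos. Annotated ncRNA genes of other kinds touched 24 members (8%) against 1.94% of the lower peaks. A start of any gene, of whatever kind, lay within 250 bp of 41 members (13.7%) against 8.49%. piRNA genes touched 8 members (2.67%) against 5.19%.

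Host genes were then read by function, as counts of genes with a member out of the genes of a list with any eligible intronic peak, beside 9.48% over all genes. The counts are those of the pooled list, whose hosts vary with the replicate as given above. Lists overlap, so their counts are not separate observations. vab-1 and vab-2 count under both adhesion and Wnt to receptor tyrosine kinase signalling, and unc-73 under adhesion and G protein signalling. hmr-1 and sax-7 count under adhesion and a tissue, and vab-10 under cytoskeleton and epidermis. A gene counts whichever of its transcripts holds the peak. Cell adhesion and axon guidance had 9 of 32: cdh-8 (135.5), hmr-1 (51.5), the Eph receptor gene vab-1 (50.1) and the L1CAM gene sax-7 (49.9) led. Signalling through Wnt, Notch, TGF-beta and receptor tyrosine kinases had 9 of 30, led by vab-1, the Nemo-like kinase gene lit-1 (45.9), the Frizzled gene lin-17 (43.8) and the ERK gene mpk-1 (40.1). Actin, tubulin and cytoskeleton had 5 of 15, with vab-10, the spectraplakin gene of the epidermis (61.7), ben-1, a beta-tubulin gene (53.8), and nmy-2, a non-muscle myosin gene (52.1). The eligible genes of these lists were 12.3, 8.91 and 7.96 kb long at the median.

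Among regulators, bHLH, T-box, forkhead, GATA and Sox genes had 6 of 21, led by daf-16 (91.9), fkh-7 (74.7), fkh-6 (38.6) and egl-27 (36.4). Nuclear hormone receptors had 6 of 42, with nhr-64 (69.4), nhr-19 (67.9), nhr-46 (61.7) and nhr-34 (37.96). The peak of nhr-46 at 61.7 had rank 230 in replicate 1 and was absent from the list of replicate 2. The peaks of nhr-64, nhr-19 and nhr-34 were in both lists. Chromatin regulators had 4 of 34, zfp-1 (49.6), lin-59 (43.75), mys-1 (37.97) and mes-3 (34.3). Homeobox genes had 2 of 22, ttx-1 (115.6) and zfh-2 (58.9). None of the 8 Pax genes on the autosomes had an eligible peak, and pax-1 itself is therefore not among the hosts. G protein and second messenger signalling had 5 of 31, with mnk-1 (172.2), the protein kinase A gene kin-1 (62.95), unc-73 (43.5) and rho-1 (34.1).

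**Figure D5:**
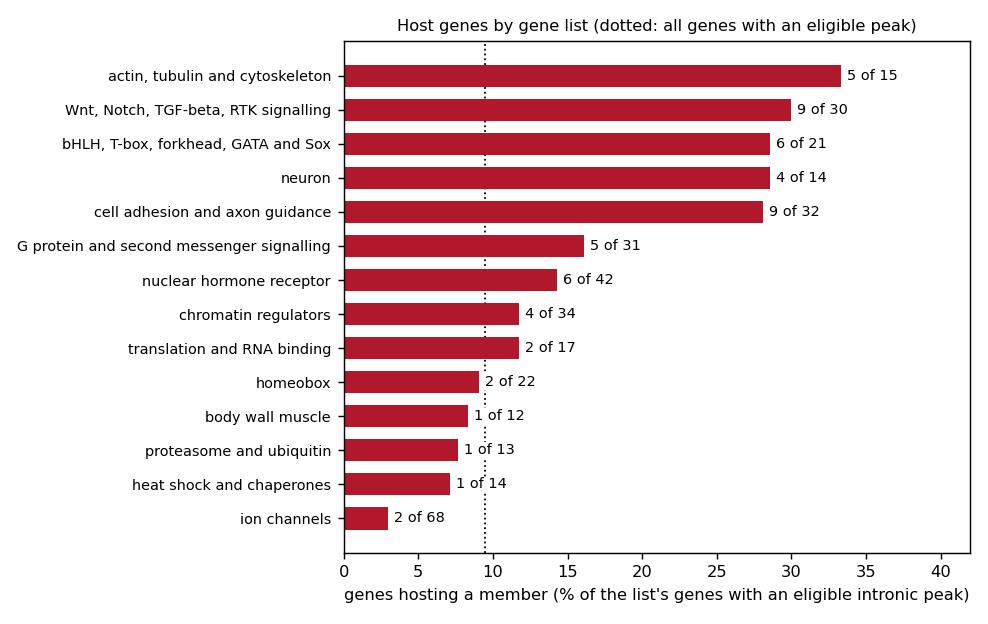
Share of each list's genes hosting a member (percent of its genes with an eligible intronic peak, horizontal), for lists with at least 10 such genes; labels give the counts and the dotted line marks 9.48%. Actin, tubulin and cytoskeleton stands at 5 of 15 and ion channels at 2 of 68.

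Lists of tissue markers were small. Neuron had 4 of 14, with sax-7, unc-33 (38.1), which shapes axons, and unc-17 and cha-1, 2 acetylcholine genes that share 1 member at 37.3. That shared member was absent from the list of replicate 1 and had rank 5303 in replicate 2. Epidermis had 3 of 7, vab-10, hmr-1 and lin-29 (34.2). Body wall muscle had 1 of 12, unc-112 (56.2). Pharynx had 1 of 4 with tbx-2 (36.2), the excretory system 1 of 5 with exc-5 (33.9), and germline 1 of 2 with mes-3. The peak of exc-5 had rank 1683 in replicate 1 and was absent from the list of replicate 2. The peaks given here for unc-33, lin-29, unc-112 and tbx-2 were in both lists. Intestine, glia and cuticle collagens had 0 of 2 each.

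Ion channels had 2 of 68, lgc-27 (59.9) and acr-24 (38.2), the lowest share of the lists with 10 or more eligible genes. Their eligible genes were 7.98 kb long at the median. Translation and RNA binding had 2 of 17, larp-1 (90.4) and asd-2 (45.8). Proteasome and ubiquitin had 1 of 13, usp-39 (41.1), and heat shock and chaperones 1 of 14, dnj-24 (44.7). None of the 78 cytosolic ribosomal protein genes had an eligible peak. Longer genes offer more intron, and the part of gene length in these counts was not tested.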

How the data were processed

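PAX-1::eGFP was profiled by ChIP-seq in 2 replicates of late embryos. The authors deposited peak lists per replicate, a pooled list and a thresholded list. The listing that came with the lists says that all but the last hold both peaks and background and were called against a control. The thresholded list was derived from them. Aligner and peak caller: not given in the sources used here. Each signal value and each -log10 q is the authors' own, as deposited, and served to order peaks inside 1 list. Lists on ce11 were used, and those on ce10 were not used here.

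Summits were placed against Ensembl release 115 genes and WBcel235 sequence with Python 3.11.15, pandas 2.3.3, numpy 2.4.6 and scipy 1.17.1. Peaks matched between lists when they overlapped by 1 bp, and peaks of the thresholded list by identical coordinates. Windows took 75 bp on each side of the summit, and introns were numbered on the longest transcript with the summit in an intron. Intron lengths were not always those of that transcript, so a number and a length can describe different introns. In flcn-1, for example, intron 11 of 16 was given 6593 bp for 1 member and 1997 bp for another. The steps were tested on simulated data. There was no comparison between groups. The alternatives were other list sizes, distances, windows, overlaps and each replicate alone.

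Named are hosts of the 15 highest members in both replicate lists, hosts with the most members, up to 4 hosts by signal per gene list, and hosts at the boundary of the 300. Others were chosen after their values were seen. Members, gene lists and words were chosen with earlier results of these data known. The names opt-2, mir-228, ceh-26, egl-40, efn-1, fhod-2 and ifa-2 matched no gene. The number of deposited columns left unmatched was 0. The sequence of 1 of the highest members is not reported here.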

Additional observations from a re-analysis of the deposited data

How the results depend on the processing

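Of 80 recomputed values, 40 were counted as kept and 40 as moved. Shares and medians were judged by the error of the value reported. The number of host genes was given no such error, so its part in this count rests on no interval. The GAGAGA values among the 80 were added after seeing the data. With 1 replicate left out, median G+C ran from 32.5 to 41.7%, the share over 50% masked from 19 to 39.7%, the share in intron 1 from 22.3 to 28.8%, median intron length from 1964.5 to 3162 bp, the share in introns over 2000 bp from 49 to 63.7% and the AGAGAC share from 12 to 27%. Replicate 2 alone gave the lower G+C and the higher masked share. Taking the 150 highest gave G+C of 43.05%, a masked share of 16.7%, 14.7% among the highest of both replicates, 128 hosts and AGAGAC in 31.3%. Taking 600 gave 21.5% in intron 1, introns of 1968 bp, G+C of 33.1%, 41.7% masked, 3.67% among the highest of both, 475 hosts, AGAGAC in 14.8% and 49.4% in long introns. Summits over 2000 bp from starts gave 18.9% in intron 1, G+C of 33.1%, 45.7% masked, 2.33% among the highest of both and AGAGAC in 13.3%. Peaks wholly outside exons gave introns of 3415 bp, G+C of 35.8%, 33% masked and 65.3% in long introns. Without masked windows, introns were 3557 bp and 65.9% were long. Windows of 50 bp on each side held AGAGAC in 17%. The shortest transcript put 37.7% in intron 1, and 3000 highest peaks per replicate held 24.7% of members in both. The cause of these changes was not tested.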
